A study of Mus musculus with 34 samples.

Results

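The comparison of infarcted hearts at 24 h with infarcted hearts at 4 h, neither injected with anything, follows the transcriptome of the ischemic left ventricle through the first day after coronary occlusion. Its members were the 7 libraries labelled as myocardial infarction without injection, out of 34 libraries in the series: 3 taken at 4 h (C, D and E) and 4 taken at 24 h (C, D, G and H). The 3 libraries labelled sham (D, H and I) were sequenced in the same table and served as the reference for what had already changed by 4 h. All animals were CFW mice, an outbred Swiss stock, and the infarct was made by tying off the left anterior descending coronary artery for good. Each library came from the left ventricle of 1 mouse, from the ischemic area or, in controls, the equivalent area. Age and sex are not given in the sources used here. The labels of the controls record no operation, whereas the methods of the study describe a sham operation. None of these 10 hearts was injected with modified mRNA. Myh6, the adult cardiac myosin heavy chain, was at 3706 to 17590 CPM across the 10 libraries, so the heart muscle named in the labels was present in each.

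Values are read counts scaled to library size (CPM), which measure the share of a library's RNA given by a gene and not its amount per heart. In these bulk samples, fewer cells of a type and less RNA per cell cannot be told apart. Of 14552 genes listed, the 12487 whose mean over the 10 libraries reached 1 CPM were tested with limma on log2(CPM + 1) and were called at a Benjamini-Hochberg adjusted p below 0.05. A log2 difference on this scale understates the change of genes near or below 1 CPM. Of the tested genes, 340 had means below 1 CPM in both the sham and the 4 h libraries. These passed the filter through their 24 h level alone and so had to differ. Per-library values below are given in the order D, H, I for sham, C, D, E for 4 h and C, D, G, H for 24 h.

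When a coronary artery closes, surviving cells at first transcribe immediate early genes, short genes for transcription factors that are induced without new protein synthesis and whose mRNAs are usually short-lived. Later, leukocytes enter the tissue, stress programs of protein folding and amino acid supply are engaged, and cardiomyocytes lose mRNAs for mitochondrial metabolism and ion channels while re-expressing genes of the fetal heart. Comparing 24 h with 4 h, with sham as the base, separates genes whose early response had passed from genes whose change began only after 4 h.

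The step from 4 h to 24 h was far larger than the step from sham to 4 h. Between 4 h and 24 h, 7976 of 12487 genes were called (63.9%), 4644 of them higher at 24 h (37.2%) and 3332 lower (26.7%). The 4 and 3 libraries did not overlap for 7765 genes (62.2%). Only 296 genes (2.37%) were called between 4 h and sham, 194 of them higher at 4 h (1.55%) and 102 lower (0.817%), whereas 8236 (66%) were called between 24 h and sham. The 296 rested on few libraries: the count was 105 without sham H, 126 without 4 h C, 131 without sham I, 138 without 4 h D and 560 without 24 h G, and 205 to 313 without any 1 of the other 5. The median difference of all tested genes from 4 h to 24 h was 0.10 on the log2 scale. A difference above 1 on the log2 scale with a call was seen for 1663 genes higher and 1035 lower at 24 h, and above 3 for 152 higher and 6 lower. Most of the largest called differences were increases. These counts include the 340 genes that passed the filter through their 24 h level alone, which had to be higher at 24 h.

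Each early gene was then placed by what happened next. Of the 296 genes called at 4 h, 63 had moved back by 24 h, meaning that the 24 h versus 4 h difference was called in the opposite direction and that at most 50% of the 4 h difference from sham remained. A further 16 genes moved back by a called amount but kept more than 50%, and 9 moved past the sham level by more than 50% of the 4 h difference. No later call was made for 98 genes, and 110 moved further in the direction they had taken at 4 h. Among the 194 genes higher at 4 h, continued rise was the most frequent course (102 genes), followed by no later call (63), return (21) and partial return (7). Among the 102 genes lower at 4 h the order was different, with 42 returned, 35 without a later call, 9 partly back and 8 lower still. Both calls used the same 4 h libraries, so a 4 h mean that lay too high or too low by sampling would itself move a gene toward the returned class. Members nearest the 50% limit were Kin, at -48.6% and so past the sham level, and Zfp780b, with 48.4% of its 4 h difference left. On the other side of the limit were Zfp760, with 50.7%, and Ogt, with 52.4%.

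**Figure D1:**
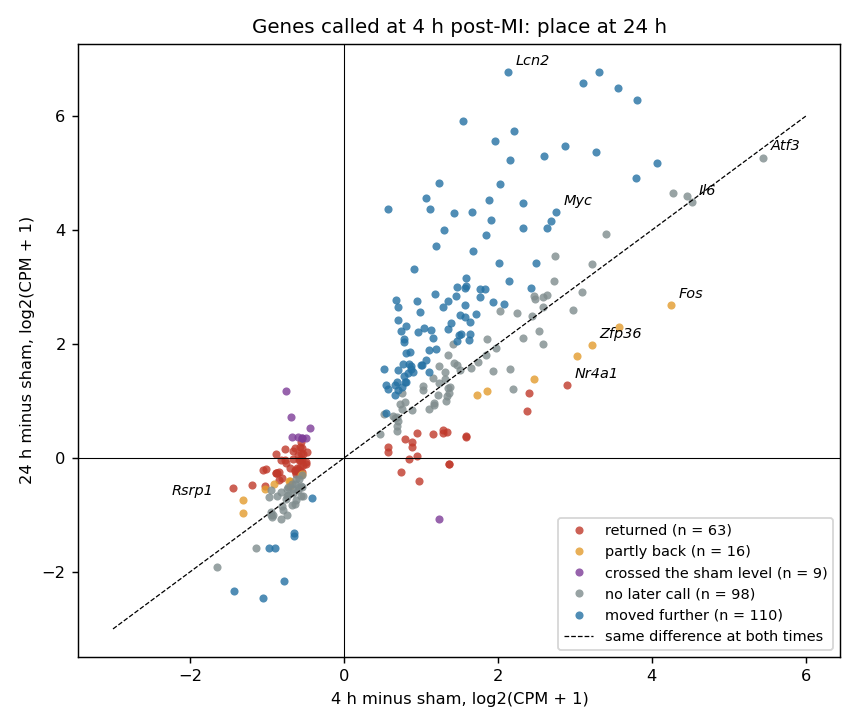
Each point is 1 of the 296 genes called at 4 h against sham, with its 4 h minus sham difference on the x axis and its 24 h minus sham difference on the y axis (log2 of CPM + 1), coloured by its later course. Both axes share the sham libraries. Genes that moved further lie beyond the diagonal of equal change, and the 63 returned genes lie between the zero line and 50% of their 4 h difference, on either side. Nr4a1, among these, is still 1.28 higher than sham on the log2 scale.

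The early genes that were higher at 4 h and came back were few and mixed in kind. They included the nuclear receptor Nr4a1, the transcription factors Klf4, Irf2bp2, Rel and Sox17, the activation marker Cd83 and 6 globin genes. The 21 genes had a median 4 h minus sham difference of 1.16 and a median 24 h minus 4 h difference of -0.88 (log2), ranging from 0.57 to 2.90 and from -1.62 to -0.38. For 16 of the 21, no 24 h library reached the 4 h range, and for 17 the 24 h versus sham difference was not called. Both counts largely follow from the rule of the class. It required a called fall from 4 h and limited how much of the 4 h difference was left. Of all tested genes, 62.2% had no overlap between the 4 h and 24 h libraries.

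Nr4a1, an orphan nuclear receptor and a classical immediate early gene, lies on chr15:101266846-101274795 (mm10, plus strand). Its level was 6.58, 7.66 and 26.3 CPM in sham, 77.2, 103 and 90.9 CPM at 4 h, and 35.4, 48.7, 18.1 and 21.2 CPM at 24 h. All 4 h libraries lay above all 24 h libraries, and 24 h libraries G and H lay within the sham range. Its level fell by 1.61 ± 0.42 (SE) on the log2 scale from 4 h to 24 h (limma, adjusted p = 0.006), after a 4 h minus sham difference of 2.90 ± 0.45 (adjusted p = 0.0063), and 44.3% of that first difference was left. The cyclic AMP response element, a site through which many immediate early genes respond to signals, has the core TGACG or its reverse complement. The stretch from 250 bases before to 50 bases after the Nr4a1 start (RefSeq, GRCm38.p6, the assembly of mm10) held 4 such cores. The full element TGACGTCA was not in this stretch. It was in 2 of the 20 immediate early genes with a promoter entry (10.0%), in none of the 18 early genes with an entry that returned at least in part from a higher level, and in 3.52% of the 9690 tested genes with one. The core was read after the full element had been searched. At least 3 copies of the core were found in 3 of the 20 (15.0%), in 1 of the 18 (5.56%), which was Nr4a1, and in 2.51% of the 9690. The window is shown because 2 of the copies lie within 30 bases at chr15:101266608-101266637 on the plus strand, with the core in capitals.
Nr4a1: ccctgCGTCAatggaaccccgcgtgCGTCA
Such a match describes the letters in this window and is not evidence of a bound site.

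Klf4, a zinc finger factor with roles in endothelium and smooth muscle, returned fully. It stood at 33.5, 27.1 and 24.3 CPM in sham, 56.0, 41.3 and 47.1 CPM at 4 h, and 20, 27.1, 26.1 and 21.1 CPM at 24 h, a fall of 1.0 ± 0.15 on the log2 scale (adjusted p = 0.00015). The 24 h libraries overlapped sham and none reached the 4 h range. Rel, the c-Rel subunit of NF-kB, showed the same shape at lower abundance, with 5.79, 5.41 and 5.72 CPM in sham, 10.2, 15.0 and 10.8 CPM at 4 h, and 5.82, 7.23, 5.32 and 4.95 CPM at 24 h. It fell by 0.92 ± 0.15 (adjusted p = 0.00026), and its 24 h minus sham difference was 0.03. Cd83, a surface marker of activated antigen-presenting cells, had a 24 h level lower than sham by 0.41 on the log2 scale (adjusted p = 0.034), a call that was lost without 24 h D (-0.29, adjusted p = 0.077) or any 1 of the sham libraries (0.053 to 0.11). It measured 4.81, 4.48 and 5.27 CPM in sham, 12.2, 10.6 and 8.75 CPM at 4 h, and 3.71, 2.44, 3.87 and 3.77 CPM at 24 h, so that all 24 h libraries lay below all sham libraries. The fall from 4 h to 24 h was 1.38 ± 0.15 (adjusted p = 1.9e-05).

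Irf2bp2, a transcriptional corepressor, split the 24 h libraries. It was at 24.8, 20.2 and 25.9 CPM in sham, 62.6, 57.8 and 55.7 CPM at 4 h and 45.5, 41.6, 24.4 and 26.7 CPM at 24 h, with C and D between the sham and 4 h ranges, G within the sham range and H just above it. It fell by 0.80 ± 0.20 (adjusted p = 0.0044). Dnajc15, a mitochondrial import co-chaperone, fell by 0.70 ± 0.13 (adjusted p = 0.00052), from 49.2, 53.1 and 58.6 CPM at 4 h to 26.2, 33.2, 35.6 and 35.8 CPM at 24 h, against 25.2, 29.3 and 31.2 CPM in sham. Slc25a33, a mitochondrial pyrimidine nucleotide carrier, went from 24.1, 28.3 and 23.4 CPM to 13.1, 13.8, 13.7 and 13.1 CPM, a fall of 0.86 ± 0.14 (adjusted p = 0.00026). In both genes the 24 h libraries overlapped sham and did not reach the 4 h range. Klf4, Rel, Dnajc15, Slc25a33 and Sox17 were chosen after their values were seen.

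Rasd1, a Ras-like G protein induced by glucocorticoids, was returned by its mean only. Its 24 h libraries stood at 5.28, 22.7, 2.88 and 3.37 CPM, so that library D exceeded the whole 4 h range of 13.5 to 20.1 CPM. The adjusted p of the fall was 0.044, and 47.6% of the 4 h difference was left. The fall was not called without any 1 of 9 libraries, 24 h D being the exception (adjusted p = 0.056 to 0.13). Casq1, the calsequestrin of fast skeletal muscle, was at 22.0, 53.9 and 13.5 CPM in sham, 102, 133 and 183 CPM at 4 h and 58.6, 52.2, 70.4 and 19.98 CPM at 24 h (fall of 1.55 ± 0.47, adjusted p = 0.013). Without 4 h E the fall of Casq1 was 1.33 and was not called (adjusted p = 0.058). The skeletal muscle genes Myh4, Mylpf and Tnnt3 were not among the genes tested, so the share of skeletal muscle in the samples could not be read from them.

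The globin genes made up 6 of the 21. Hbb-b1, an adult beta globin, stood at 116, 60.8 and 97 CPM in sham, 260, 201 and 365 CPM at 4 h and 143, 77.3, 140 and 112 CPM at 24 h, a fall of 1.21 ± 0.27 (adjusted p = 0.0023). No 24 h library reached the 4 h range. Over all tested genes, 26.7% were called lower at 24 h than at 4 h and 1.55% higher at 4 h than in sham. All 7 tested red cell genes were called lower at 24 h than at 4 h, 6 of them were called higher at 4 h than in sham (none without 4 h C, 4 h E, sham H or sham I, each left out singly), and their summed level was 225 to 358 CPM in sham, 647 to 1140 CPM at 4 h and 275 to 545 CPM at 24 h. The part of red cells left in the tissue in these 6 genes was not tested. The globin genes share reads as near-identical copies, and Hbb-b2 and Hbb-bt carried identical values in every library, so they are not separate measurements. Without red cell genes, 15 returned genes that were higher at 4 h remained.

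**Figure D2:**
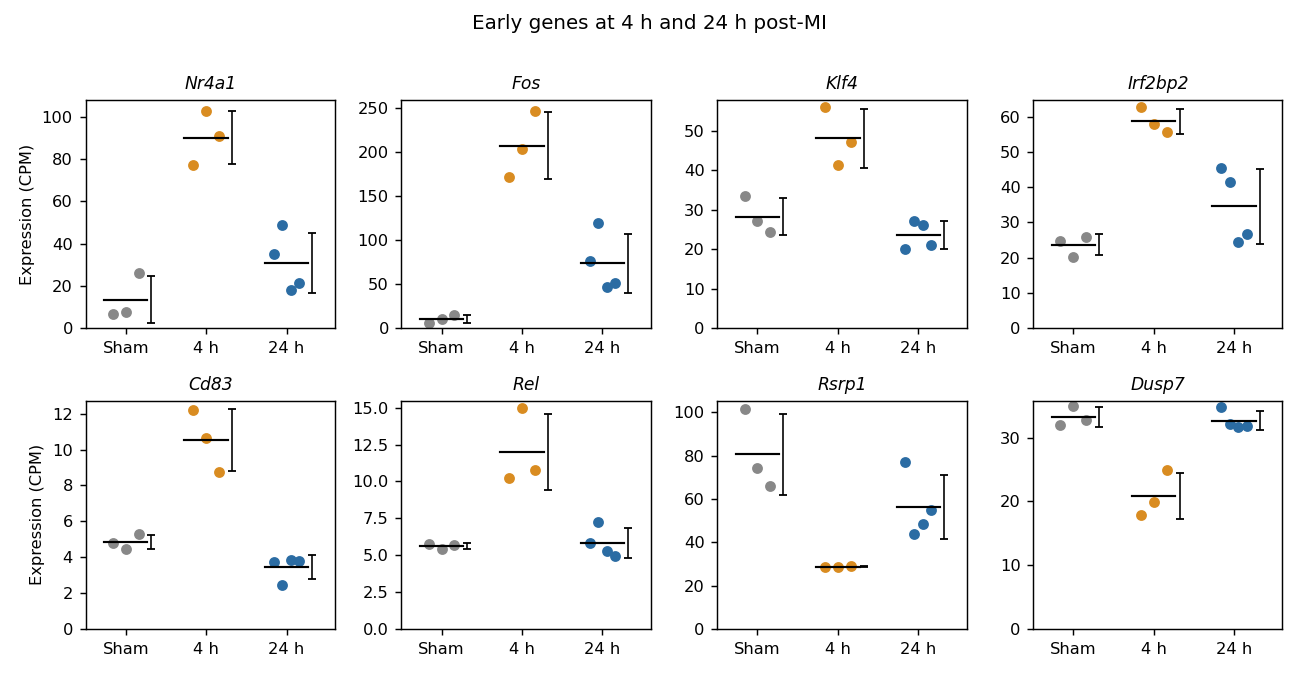
CPM per library for 8 early genes (linear axes), with points for the 3 sham, 3 4 h and 4 24 h libraries, a line at the mean and a bar of 1 SD. In Nr4a1, Fos, Klf4, Irf2bp2, Cd83 and Rel the 4 h libraries lie above all 24 h libraries, and in Rsrp1 and Dusp7 they lie below them.

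Most of the immediate early response had not passed by 24 h. Of 27 tested immediate early genes, a list of AP-1, Egr and Nr4a factors with Ier, Klf, Myc, Btg2 and other genes of this class, 19 were called higher at 4 h than in sham and 24 were called higher at 24 h than in sham. From 4 h to 24 h, 13 were called higher and 6 lower, with a median difference of 0.22, against 37.2% and 26.7% of all genes. Of the 19 early members, 2 had returned, 4 were partly back, 5 had no later call and 8 moved further. Fos, a core AP-1 subunit, was the largest partial return. It measured 5.89, 10.8 and 14.7 CPM in sham, 172, 203 and 247 CPM at 4 h and 76.5, 119, 47.2 and 51.5 CPM at 24 h, a fall of 1.56 ± 0.33 (adjusted p = 0.0015). Every 24 h library lay below the 4 h range and above the sham range.

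The transcription factor genes Egr1 and Fosb also moved partly back, by -1.24 ± 0.38 and -1.28 ± 0.43 (adjusted p = 0.014 and 0.022), and Fosb was not called without 4 h E (-0.96, adjusted p = 0.11) or 24 h H (-1.15, adjusted p = 0.059). So did Zfp36, which encodes tristetraprolin, a protein that destabilises cytokine mRNAs. Zfp36 fell from 195, 230 and 224 CPM to 111, 118, 60.2 and 86.4 CPM, a difference of -1.24 ± 0.20 (adjusted p = 0.00023), and stayed above its sham range of 20.7 to 25.5 CPM. By contrast, Atf3, a stress-induced transcriptional repressor, was at 185, 249 and 248 CPM at 4 h and 228, 253, 139 and 196 CPM at 24 h. The groups overlapped, with a difference of -0.18 ± 0.25 (limma, adjusted p = 0.55). Socs3, the feedback inhibitor of gp130 signalling, and Il6, a cytokine that acts through gp130, likewise had no later call. Il6 stood at 0.07, 0.12 and 0.16 CPM in sham, 25.1, 25.6 and 23.3 CPM at 4 h and 35.1, 25.1, 14.3 and 26.4 CPM at 24 h. Fosl1, the AP-1 subunit Fra-1, was below 1 CPM in sham and 4 h and passed the filter through 24 h. It read 0.19, 0.76 and 0.25 CPM at 4 h, not called against sham, and 24.7, 21.4, 12.0 and 22.5 CPM at 24 h (24 h minus 4 h 3.89 ± 0.23, adjusted p = 5.7e-07). Atf3, Socs3, Il6, Egr1 and Fosb were named after their values were seen.

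Feedback genes included many that were higher at 24 h than at 4 h. Of 9 NF-kB feedback genes called at 4 h, 6 moved further, 2 had no later call and 1 returned. The courses of 12 such cytokine, chemokine and Socs genes were 7 further, 4 without a later call and 1 returned, and those of 7 phosphatase and decay genes 2 further, 4 without a later call and 1 partly back. Of all 21 tested NF-kB feedback genes, 15 were called higher at 24 h than at 4 h and 1 lower, the lower one being Cd83. Means of 2 of the 21 were below 1 CPM in both sham and 4 h libraries. Of 33 cytokine, chemokine and Socs genes, 23 were higher and 3 lower, with a median difference of 1.65, though 4 of them were below 1 CPM in both sham and 4 h libraries. Il1b, the inflammasome cytokine, rose from 4.02, 7.61 and 5.38 CPM to 101, 86.2, 35.9 and 94.8 CPM (3.52 ± 0.31, adjusted p = 4.5e-06). Selp, the endothelial adhesion molecule P-selectin, rose from 9.29, 16 and 10.5 CPM to 84.4, 68.8, 33.4 and 39.7 CPM (2.09 ± 0.29, adjusted p = 8.4e-05). In both genes the 24 h libraries lay above all 4 h libraries and library G was lowest among them. Among the 21 MAP kinase phosphatase and mRNA decay genes, 11 were higher and 3 lower. The shares of all tested genes, for these 3 lists, were 37.2% higher and 26.7% lower. Spry1, a receptor tyrosine kinase inhibitor, fell by 1.11 ± 0.22 (adjusted p = 0.00097), from 32.6, 26.7 and 29.2 CPM to 13.4, 16.1, 17.5 and 7.50 CPM, but its 4 h minus sham difference of 0.74 was not called (adjusted p = 0.15).

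Genes that dipped at 4 h and recovered were a different set, of low abundance and small range. The 42 genes had a median over their means of 7.31 CPM, a median 4 h minus sham difference of -0.63 and a median 24 h minus 4 h difference of 0.60, from 0.30 to 0.95. In 37 of them the 4 h and 24 h libraries did not overlap, and for 40 the 24 h versus sham difference was not called. These counts too largely follow from the rule of the class, which required a called rise from 4 h and limited the dip that was left. The largest dip was in Rsrp1, which encodes an arginine and serine rich protein and lies on chr4:134923625-134927371 (plus strand). It measured 102, 74.2 and 66.0 CPM in sham, 28.5, 28.7 and 28.9 CPM at 4 h and 77.1, 44.0, 48.6 and 55.1 CPM at 24 h. The 4 h libraries were the lowest of the 10, and it rose by 0.91 ± 0.19 from 4 h to 24 h (adjusted p = 0.0012) with 36.4% of its dip left.

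Dusp7, a phosphatase of ERK, had 3.96% of its dip left. It was at 32, 34.9 and 32.7 CPM in sham, 17.9, 19.9 and 24.9 CPM at 4 h and 34.9, 32.1, 31.7 and 31.9 CPM at 24 h (rise of 0.63 ± 0.11, adjusted p = 0.00044). All 24 h libraries lay above 4 h and overlapped sham. Axin2, a negative regulator and target gene of Wnt signalling, went from 1.47, 0.72 and 1.32 CPM at 4 h to 2.21, 3.19, 2.94 and 3.04 CPM at 24 h (0.84 ± 0.18, adjusted p = 0.002), against 2.64, 4.64 and 3.28 CPM in sham. The RNA-binding protein genes Rbm12b2 and Rbm5 rose by 0.95 ± 0.16 and 0.61 ± 0.10 (adjusted p = 0.0004 and 0.00037). Tepsin, an accessory protein of the AP-4 adaptor complex, rose by 0.78 ± 0.13 (adjusted p = 0.00038). Dusp7, Axin2 and Rbm5 were named after their values were seen.

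Genes with zinc finger protein symbols recurred among the dips, a feature seen in the gene list and not chosen in advance. Such symbols made up 378 of the 12487 tested genes (3.03%), 33 of the 102 genes called lower at 4 h and 1 of the 194 called higher. They were 14 of the 42 returned dips (33.3%), 6 of the 9 partly back (66.7%) and 12 of the 35 without a later call (34.3%). Over all 378, the median difference was -0.29 from sham to 4 h, 0.15 from 4 h to 24 h and -0.18 from sham to 24 h, and 123 were called higher at 24 h than at 4 h and 42 lower. Zfp84 stood at 12.4, 12.6 and 11.3 CPM in sham, 5.11, 7.56 and 5.88 CPM at 4 h and 8.44, 9.51, 13.3 and 8.98 CPM at 24 h (rise of 0.62 ± 0.16, adjusted p = 0.0056), with no overlap of the infarct groups. Genes of this family are near copies of each other in places, and reads may have been split among them.

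The span of the gene from first to last annotated base differed between the classes. The 28 early genes that were higher at 4 h and had returned or partly returned had a median span of 5.90 kb, the 163 that stayed or moved further 11.7 kb, the 42 returned dips 15.9 kb and all tested genes 22.5 kb. These are descriptions of the classes, with no test.

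The size of the returned class depended on single libraries and on how the 4 h call was made. Leaving out 1 library at a time gave 6 to 98 returned genes. The count was 6 without sham H, 9 without 4 h C, 11 without sham I, 19 without 4 h D, 35 without 4 h E, 39 without sham D, 40 without 24 h H and 98 without 24 h G. Rsrp1 and Dnajc15 stayed in the class in all 10 of these fits, Rel in 9, and Nr4a1, Cd83, Irf2bp2 and Slc25a33 in 8. Dusp7, Hbb-b1 and Sox17 stayed in 6, Klf4 and Casq1 in 4 and Rasd1 in 1. When the 4 h call was taken from the 4 h and sham libraries alone, a choice made after seeing the data, 705 early genes were called and 121 of them returned, among them all 63.

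A second set of libraries in the series allowed the same times to be read in other mice, infarcted and injected with modified mRNA for luciferase (Luc), with 4 libraries at 4 h and 3 at 24 h. That table was normalized separately and the titles of its 24 h libraries follow another pattern than those at 4 h, so the time and the way the groups were made cannot be told apart there. Of 12555 genes tested in it, 3079 were called higher at 24 h (24.5%) and 979 lower (7.8%). After median-ratio rescaling the split was 1969 higher and 1789 lower. Of the 21 returned genes that were higher at 4 h, 4 were called lower (19.0%) and 2 higher, with a median difference of -0.40. Cd83 was among the lower ones, with a Luc difference of -2.18 (adjusted p = 5.6e-07), while Nr4a1 had -0.83 (adjusted p = 0.16). Of the 7 higher genes that were partly back, 3 were called lower in the Luc set (42.9%), among them Fos, which fell by 1.98 on the log2 scale (adjusted p = 0.0037). Of the 42 returned dips, 10 were called higher (23.8%) and 2 lower, close to the background. Dusp7 rose there by 0.73 (adjusted p = 0.004), whereas Rsrp1 had -0.41 (adjusted p = 0.29).

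Genes whose change began only after 4 h numbered 4522. They were called in the same direction at 24 h against both 4 h and sham. The 95% interval of their 4 h minus sham difference lay inside a 1.5-fold change of CPM + 1 either way. Of these, 2611 were higher at 24 h (2290 after median-ratio rescaling), with a median difference from 4 h of 0.72, and 1911 lower (2550), with a median of -0.70. Differences above 1 on the log2 scale were seen in 679 of the higher and 421 of the lower genes, and above 3 in 8 and none. Because the interval had to be narrow, genes with variable levels could not enter, and the 4522 are not all genes that changed late. Adding 1 to each CPM value compresses differences of low genes, so these could enter more easily. Dusp4, for example, was in the class with means of 0.93 CPM in sham and 1.02 CPM at 4 h. With a pseudocount of 0.1 the class held 3754 genes (2201 higher and 1553 lower).

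Nmrk2, a muscle nicotinamide riboside kinase that makes the NAD precursor NMN, had the largest late rise. On chr10:81198170-81202038 (minus strand), it measured 8.32, 6.70 and 3.93 CPM in sham, 5.49, 9.29 and 4.22 CPM at 4 h, and 550, 467, 555 and 605 CPM at 24 h. Sham and 4 h overlapped, every 24 h library lay far above them, and the 24 h mean was 85.9 times the 4 h mean (6.27 ± 0.24 on the log2 scale, adjusted p = 9.5e-08). Rras2, the Ras family GTPase TC21, followed with 36.0, 44.7 and 41.1 CPM at 4 h and 461, 476, 502 and 797 CPM at 24 h (3.72 ± 0.18, adjusted p = 2.8e-07), against 40.9, 34.6 and 33.8 CPM in sham. Library H was the highest by a wide margin, and all 24 h libraries exceeded the other groups.

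Tgfb2, a ligand of the TGF-beta family, was at 8.72, 11.1 and 9.72 CPM at 4 h and 44.3, 54.2, 76.3 and 75.3 CPM at 24 h (2.52 ± 0.17, adjusted p = 1.1e-06). Capg, a macrophage-rich actin capping protein, went from 5.72, 5.65 and 5.73 CPM to 63.7, 41.6, 35.6 and 45.9 CPM (2.80 ± 0.17, adjusted p = 6.2e-07), and the oxidase of the endoplasmic reticulum Ero1l from 17.9, 24.0 and 18.2 CPM to 273, 174, 135 and 166 CPM (3.12 ± 0.20, adjusted p = 6.7e-07). In these 3 genes the 4 h and sham libraries overlapped and no 24 h library reached them. Usp53, Tpd52, Spcs3, Gm5105 and Enah completed the 10 largest late rises.

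The largest late falls included ion channel and cytoskeletal genes. Ttll1, a tubulin polyglutamylase, fell from 62.5, 53.5 and 53.4 CPM at 4 h to 6.18, 6.63, 11.6 and 6.89 CPM at 24 h (a difference of -2.74 ± 0.18, adjusted p = 8.6e-07), against 48.6, 64.2 and 51.6 CPM in sham. Kcnh2, the channel of the rapid delayed rectifier current, fell from 53.1, 47.1 and 53.4 CPM to 10.4, 12.9, 11.8 and 8.64 CPM (-2.14 ± 0.14, adjusted p = 6.7e-07). Abcc8, the sulfonylurea receptor of the ATP-sensitive potassium channel, fell from 33.4, 35.0 and 39.7 CPM to 5.37, 8.17, 11.4 and 5.67 CPM (-2.15 ± 0.21, adjusted p = 8.5e-06). The 24 h libraries lay below all sham and 4 h libraries in each, and library G was the highest of the 24 h libraries in Ttll1 and Abcc8. Whrn, a PDZ scaffold protein, Grb14, an adaptor that inhibits insulin receptor signalling, and Crhr2, the urocortin receptor, fell by 2.41, 2.25 and 2.01 on the log2 scale. Magix, Lynx1, Lmod3, a leiomodin of the thin filament, and Gpr155 completed the 10.

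**Figure D3:**
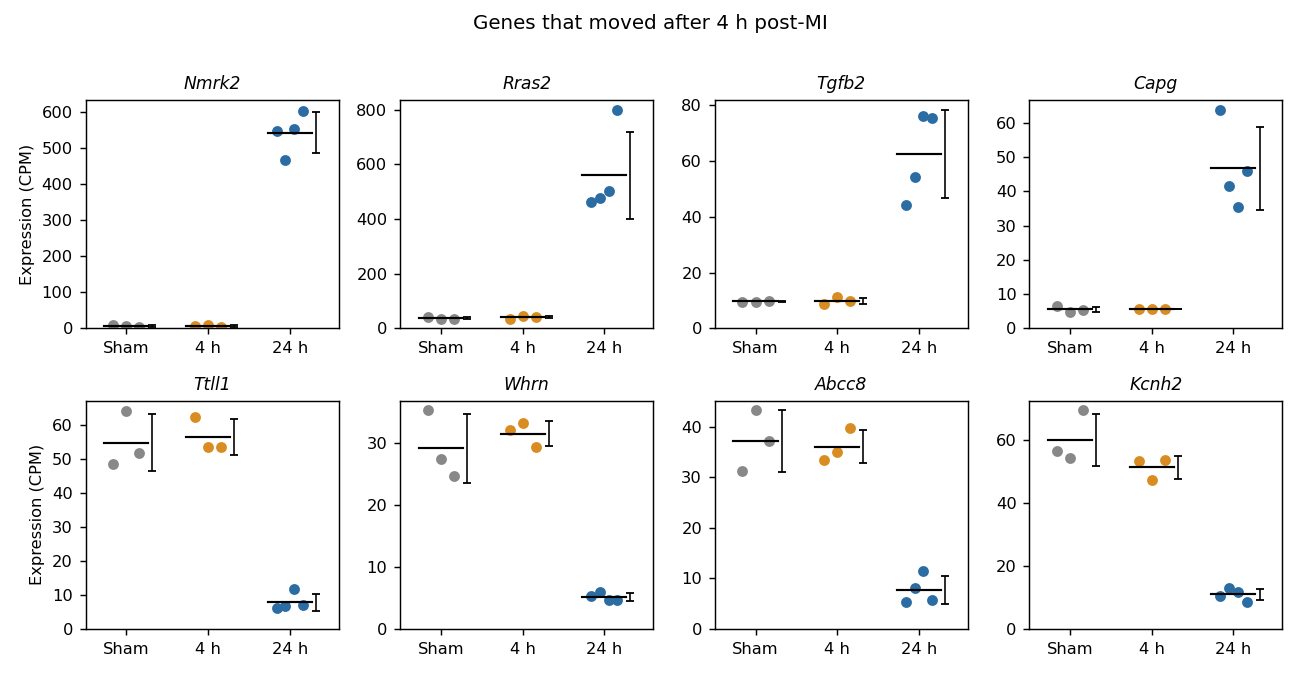
CPM per library for 8 late genes (linear axes), with points for the sham, 4 h and 24 h libraries, a line at the mean and a bar of 1 SD. Sham and 4 h overlap in each panel but Kcnh2, where 4 h lies just below sham, and the 24 h libraries lie above them for Nmrk2, Rras2, Tgfb2 and Capg and below them for Ttll1, Whrn, Abcc8 and Kcnh2.

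In the Luc set, 1045 of 2569 late rises that were tested were called higher (40.7%) and 52 lower, and 212 of 1904 late falls were called lower (11.1%) and 143 higher (7.51%). The share of late falls called lower was thus 11.1% against a background of 7.8%, and the median Luc difference of the late falls was -0.06. Rras2 and Tgfb2 rose there as well (0.71 and 1.0 on the log2 scale, adjusted p = 0.019 and 0.0053), Ttll1 fell by 0.87 (adjusted p = 0.0018), and Kcnh2 was higher at 24 h by 1.30 (adjusted p = 0.00037).

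Without regard to class, the 6 largest rises at 24 h were Slfn4, Nmrk2, Arg1, Timp1, Spp1 and S100a9. Slfn4, a schlafen gene of activated myeloid cells, rose from 0.60, 2.04 and 0.96 CPM to 632, 613, 131 and 432 CPM (7.50 ± 0.46, adjusted p = 6.2e-07). Arg1, arginase 1 of alternatively activated macrophages, rose from 0.11, 0.24 and 0.12 CPM to 182, 57.8, 42.5 and 89.9 CPM (6.13 ± 0.37, adjusted p = 6.1e-07). Arg1 was below 1 CPM in every 4 h library, so its test leaned on its 24 h level. Timp1, an inhibitor of matrix metalloproteinases, and Spp1, osteopontin, rose by 6.09 ± 0.26 and 5.70 ± 0.27 (adjusted p = 1.4e-07 and 2.8e-07). Library G was the lowest 24 h library for Slfn4, Arg1 and Spp1, and all 24 h libraries exceeded all 4 h libraries. The largest falls were in Lrtm1, a leucine-rich transmembrane protein, from 375, 299 and 487 CPM to 6.42, 20.2, 44.9 and 14.9 CPM (-4.37 ± 0.46, adjusted p = 1.4e-05), and in Lrrc15, Ky, a Z-disc protein, and Mylk4, a myosin light chain kinase, with differences of -3.67, -3.46 and -3.43. Klhdc8a and Pcsk6 completed the 6.

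The neutrophil and monocyte markers moved as a block. Of 26 listed, 22 were tested, 21 of these were called higher at 24 h, and 9 of the 22 were below 1 CPM in both sham and 4 h libraries and so had to rise to be tested. Ngp, Camp and Ly6g, defining neutrophil genes, were not among the genes tested. The summed level of the 22 was 28.0 to 30.9 CPM in sham, 40.3 to 90.5 CPM at 4 h and 707 to 2980 CPM at 24 h. S100a9, the calprotectin subunit of neutrophils, read 2.97, 11.8 and 9.79 CPM at 4 h and 928, 765, 127 and 341 CPM at 24 h (5.68 ± 0.60, adjusted p = 1.3e-05). Chil3, a chitinase-like protein of monocytes and macrophages, and Cxcr2, the neutrophil chemokine receptor, rose by 5.43 ± 0.25 and 5.22 ± 0.47. In the Luc set 8 of 23 neutrophil and monocyte markers were called higher and none lower, with a median difference of 0.65. Of 29 tested macrophage and antigen-presenting cell markers, 12 were higher and 2 lower (5 lower without 24 h C, and 1 without 24 h D, 24 h H, 4 h C or 4 h D), with summed levels of 428 to 551 CPM at 4 h and 763 to 1660 CPM at 24 h. Of all tested genes, 37.2% were higher and 26.7% lower. Means of 2 of the 29 were below 1 CPM in both sham and 4 h libraries, so these passed the filter through 24 h. The part of entering leukocytes in the rises of other genes was not tested.

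Interferon-stimulated genes were mostly higher at 24 h than at 4 h. At 4 h none of the 34 was called against sham by limma, with 1 lower and none higher at an unadjusted p below 0.05. Only 2.37% of all tested genes were called at 4 h against sham. From 4 h to 24 h, 31 of 34 were called higher, with a median difference of 1.64, against 37.2% of all tested genes. Isg15, a ubiquitin-like antiviral modifier, stood at 3.22, 2.99 and 3.02 CPM in sham, 2.14, 2.63 and 2.79 CPM at 4 h and 61.7, 58.4, 22.1 and 41.9 CPM at 24 h (3.64 ± 0.28, adjusted p = 2e-06). Oas3, an oligoadenylate synthetase, and Zbp1, a sensor of Z-form nucleic acid, rose by 3.99 ± 0.34 and 3.57 ± 0.38. These were among 4 of the 34 that lay below 1 CPM in both sham and 4 h and passed the filter through 24 h. The summed level was 220 to 232 CPM at 4 h and 521 to 1230 CPM at 24 h, with library G lowest. Only 4 met the narrow interval for late genes, and 20 did so when the interval was taken from the sham and 4 h libraries alone.

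Many of these genes hold, near their start, letters of the kind that interferon regulatory factors bind. GAAA, any 2 bases and GAAA again, on either strand and in overlapping copies, from 250 bases before to 50 bases after the start, were present in 16 of 26 interferon-stimulated genes with an entry (61.5%) and in 3.82% of the 9690 tested genes with one. The listed genes were chosen as known targets of interferon, so the match describes the list. Windows of 30 bases around the matches are shown to let the spacing be compared, in gene orientation, with matched letters in capitals. They lie at chr4:156200875-156200904 (minus strand), chr19:34640784-34640813 (plus) and chr5:120777717-120777746 (minus).
Isg15: tgccgtagGAAAAGGAAACCGAAACAGAAA
Ifit1: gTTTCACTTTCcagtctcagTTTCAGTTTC
Oas3: cagcagggaggaGAAAACGAAAgtgaaggg
Isg15 and Ifit1 carry overlapping or repeated matches and Oas3 a single one. Ifit1, an antiviral RNA-binding protein gene named after its values were seen, rose by 3.03 ± 0.30 (adjusted p = 9.6e-06). In the Luc set 33 of 34 were called higher at 24 h, with a median difference of 2.88.

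Genes of the ATF4 response, which supply amino acids and their transfer RNA charging under stress, rose together. Of 30 tested, 27 were called higher and 2 lower at 24 h than at 4 h, against 37.2% and 26.7% of all tested genes. Their median difference was 1.28. At 4 h, 1 of the 30 was called against sham, where 2.37% of all tested genes were called. Their summed level was 828 to 927 CPM at 4 h and 1620 to 1910 CPM at 24 h. Slc7a11, the cystine transporter, rose from 0.31, 0.89 and 0.52 CPM to 20.4, 18.1, 6.88 and 13.6 CPM (3.24 ± 0.29, adjusted p = 4.7e-06). Its 4 h libraries were all below 1 CPM, and 1 of the 30 had means below 1 CPM in both sham and 4 h libraries. Mthfd2, an enzyme of mitochondrial folate metabolism, and Trib3, a pseudokinase, rose by 3.02 ± 0.24 and 2.75 ± 0.22. The composite element TGATGCAA was present in 6 of 26 promoters of the list (23.1%) and in 0.743% of all. The listed genes were chosen as genes of the ATF4 response, so the match describes the list. A pair of members with a match is shown in gene orientation with the element in capitals, at chr3:50443653-50443682 (minus strand) and chr2:119351037-119351066 (plus).
Slc7a11: ggcTGATGCAAacctggagaatTTGCATCA
Chac1: ccttccctgccgTTGCATCActcctgccag
Chac1, a glutathione-degrading enzyme, rose by 1.23 ± 0.21 (adjusted p = 0.00034). Aars, the alanyl-tRNA synthetase, rose by 0.95 ± 0.12 (adjusted p = 3.4e-05), from 44.2, 54.1 and 47.4 CPM to 91.0, 88.4, 112 and 89.0 CPM. Both were named after their values were seen. In the Luc set 14 of 30 were called higher and 2 lower.

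Heat shock chaperones rose in steps that differed between members. Of 27 tested, 19 were called higher and 2 lower at 24 h than at 4 h, and 4 had already been higher at 4 h than in sham (2 without 4 h C, 4 h D, 4 h E, sham H or sham I). The 2 lower became 1 without 24 h C, 24 h D or any 1 of the 4 h libraries. The shares of all tested genes were 37.2% higher and 26.7% lower from 4 h to 24 h, and 1.55% higher at 4 h than in sham. Hspa1a, an inducible Hsp70, measured 4.20, 1.80 and 0.99 CPM in sham, 24.1, 26.7 and 25.5 CPM at 4 h and 256, 414, 274 and 254 CPM at 24 h (3.48 ± 0.27, adjusted p = 2.2e-06). Hspa1b is a near copy of Hspa1a and shares reads with it. Hsp90aa1, the inducible Hsp90, was a late gene, at 147, 166 and 147 CPM at 4 h within the sham range of 103 to 196 CPM, and at 846, 705, 740 and 897 CPM at 24 h (2.37 ± 0.18, adjusted p = 2.2e-06). In the Luc set 3 of 27 were called higher and 7 lower. Hypoxia and glycolysis genes were mixed, with 21 of 37 higher and 6 lower, against the same shares from 4 h to 24 h. Slc2a1, the glucose transporter GLUT1, rose by 3.60 ± 0.21, and Hmox1, heme oxygenase 1, rose by 4.36 ± 0.30 after a first rise of 1.55 at 4 h, which was not called without sham H (adjusted p = 0.14), sham I (0.099), sham D (0.064), 4 h C (0.055) or 24 h H (0.051).

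Mitochondrial metabolism fell late and broadly. Of 41 enzymes of the tricarboxylic acid cycle and of branched-chain amino acid breakdown, 39 were called lower at 24 h than at 4 h, at a median of -0.76. The share of all tested genes called lower was 26.7%. At 4 h against sham limma called none of the 41, with 1 lower and none higher at an unadjusted p below 0.05. Only 2.37% of all tested genes were called at 4 h against sham. Of the 41, 37 met the definition of late genes. Mut, methylmalonyl-CoA mutase, fell from 148, 147 and 178 CPM at 4 h to 37.8, 39.3, 62.0 and 44.9 CPM at 24 h (-1.78 ± 0.15, adjusted p = 4.1e-06). Oxct1, the enzyme that commits ketone bodies to oxidation, fell from 1213, 1102 and 1321 CPM to 359, 481, 640 and 445 CPM (-1.36 ± 0.18, adjusted p = 5.7e-05). No 24 h library reached the 4 h range in either gene, and library G was the highest of the 24 h libraries in both. The summed level was 19600 to 22000 CPM at 4 h and 9210 to 14500 CPM at 24 h.

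Of 40 genes of fatty acid uptake and oxidation, 30 were lower and 1 higher, against 26.7% and 37.2% of all tested genes. Acsl1, the acyl-CoA synthetase that activates fatty acids, fell from 703, 783 and 856 CPM to 147, 289, 427 and 237 CPM (-1.60 ± 0.27, adjusted p = 0.00036). The higher one was Angptl4, an inhibitor of lipoprotein lipase, with 6.32, 20.2 and 6.27 CPM at 4 h and 128, 179, 101 and 124 CPM at 24 h (3.66 ± 0.48). Of 28 metabolic regulators, 17 were lower and 2 higher (1 without 24 h C, 24 h D, sham H or any 1 of the 4 h libraries). Ppargc1a, the coactivator of mitochondrial biogenesis, and Klf15, a regulator of amino acid and lipid use, fell by 2.00 ± 0.32 and 1.62 ± 0.25. In the Luc set, 1 of the 41 tricarboxylic acid cycle and branched-chain genes was called, as higher. There, 8 of the 40 fatty acid genes were called higher and 2 lower, and 9 of the 28 metabolic regulators higher and 1 lower. Shares of all genes tested in the Luc set were 24.5% higher and 7.8% lower.

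**Figure D4:**
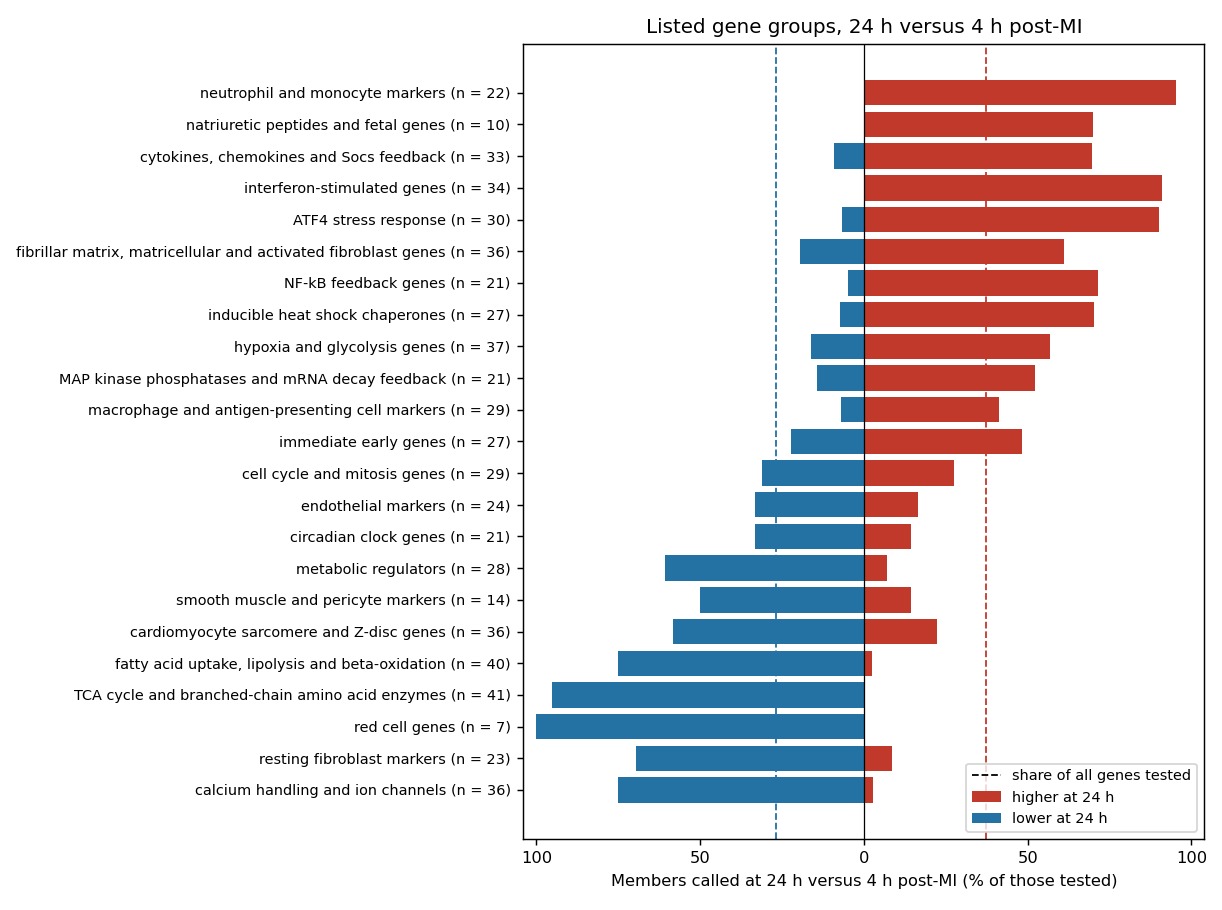
Share of tested members of each gene list called higher (right) or lower (left) at 24 h than at 4 h, in percent, with dashed lines at the share of all tested genes (37.2% higher and 26.7% lower). Neutrophil, interferon-stimulated and ATF4 lists lie furthest to the right, and the red cell, tricarboxylic acid cycle, calcium and ion channel and fatty acid lists furthest to the left. The lymphocyte list, with 1 tested gene, is left out.

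Calcium handling and ion channel genes fell alongside. Of 36 tested, 27 were called lower and 1 higher, at a median of -1.33, against 26.7% and 37.2% of all tested genes. The sum went from 19700 to 22200 CPM at 4 h to 5040 to 10100 CPM at 24 h. Kcnip2 and Kcnd2, the accessory and pore subunits of the transient outward potassium channel, fell by 2.50 ± 0.20 and 2.56 ± 0.24 (adjusted p = 2.8e-06 and 6e-06). Kcnip2 measured 174, 146 and 170 CPM at 4 h and 20.7, 28.2, 44.4 and 23.9 CPM at 24 h. All 24 h libraries were below all 4 h libraries, with G the highest. Kcnj3, an acetylcholine-activated potassium channel, fell by 2.76 ± 0.25. In the Luc set 5 of 37 calcium and ion channel genes were called higher and 8 lower, at a median of -0.02.

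Sarcomere and Z-disc genes divided. Of 36 tested, 21 were lower and 8 higher at 24 h than at 4 h, against 26.7% and 37.2% of all tested genes. Myh6, the adult alpha myosin heavy chain, fell by 1.73 ± 0.27 (adjusted p = 0.0002), and its 24 h libraries at 3706, 5873, 7568 and 4114 CPM lay below all sham and 4 h libraries. Xirp2, an actin-binding protein of the intercalated disc, rose from 218, 331 and 332 CPM to 2346, 2333, 3566 and 4077 CPM (3.37 ± 0.24, adjusted p = 1.4e-06), and Flnc, the muscle filamin, rose by 2.91 ± 0.19. Of 10 natriuretic peptide and fetal genes, 7 were higher and none lower by limma (1 lower at an unadjusted p below 0.05, and 2 lower without 24 h G or after median-ratio rescaling). Nppa, atrial natriuretic peptide, went from 178, 145 and 110 CPM to 1820, 1148, 1400 and 1743 CPM (3.40 ± 0.36). Nppb, brain natriuretic peptide, and Ankrd1, a stretch-responsive Z-disc repressor, rose by 2.92 ± 0.42 and 2.78 ± 0.23. Every 24 h library exceeded every 4 h library in Nppa. Myh6 was named after its values were seen, and its Luc difference was 0.79 (adjusted p = 0.013).

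Fibroblast lists also split between quiescent and activated genes. Of 23 resting fibroblast markers, 16 were lower and 2 higher at 24 h (1 higher without 24 h C, G or H or any 1 of the 4 h libraries), at a median of -1.27, and Scara5, a scavenger receptor of resting fibroblasts, fell from 28.6, 26.3 and 25.6 CPM to 1.28, 6.54, 4.51 and 0.91 CPM (-2.92 ± 0.39, adjusted p = 6.9e-05). The sum of this list was 2590 to 3150 CPM in sham, 3590 to 4060 CPM at 4 h and 1650 to 2810 CPM at 24 h. In the Luc set 4 of the 23 resting markers were called higher and 5 lower. Of 36 matrix and activated fibroblast genes, 22 were higher and 7 lower, against 37.2% and 26.7% of all tested genes. Means of 2 of the 36 were below 1 CPM in both sham and 4 h libraries. Tnc, the injury-induced matrix protein tenascin C, rose by 4.51 ± 0.27. Of 24 endothelial markers, 8 were lower and 4 higher (5 lower without 4 h C), against 26.7% lower and 37.2% higher of all tested genes. Kdr, the VEGF receptor, was at 122, 86.1 and 146 CPM at 4 h and 36.5, 39.8, 108 and 43.1 CPM at 24 h, with library G inside the 4 h range (-1.16 ± 0.32, adjusted p = 0.0079). Plvap, the diaphragm protein of fenestrated endothelium, rose by 2.07 ± 0.19. Of 14 smooth muscle and pericyte markers, 7 were lower and 2 higher, against the same shares of all tested genes. Rgs5, a pericyte regulator of G protein signalling, was among the lower ones, with a difference of -1.62 ± 0.18.

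Clock and cell cycle genes showed no common direction. Of 21 clock genes, 7 were lower and 3 higher, against 26.7% lower and 37.2% higher of all tested genes. Dbp, an output gene of the clock, stood at 7.13, 56.2 and 61.9 CPM in sham, 14.5, 26.0 and 20.6 CPM at 4 h and 6.34, 4.09, 7.89 and 4.53 CPM at 24 h (-1.67 ± 0.58, adjusted p = 0.025). It was not called without 24 h D, 24 h H, 4 h D or 4 h E (adjusted p = 0.056 to 0.082). Sham D was as low as the 24 h libraries while the other sham libraries were the highest of the 10. The time of day of collection is not given in the sources used here. Of 29 tested cell cycle genes, 8 were higher and 9 lower, against the same shares of 37.2% and 26.7%. Cdkn1a, the p53-induced cell cycle inhibitor p21, was called higher at both steps (2.64 and 1.40 on the log2 scale), but the second step was not called without 24 h C, D or H or 4 h C or E (adjusted p = 0.053 to 0.11), nor the first without 24 h H, sham H or I or any 1 of the 4 h libraries (0.052 to 0.15). Cenpf, a kinetochore protein, fell by 2.68 ± 0.46, although sham ranged from 7.67 to 52.7 CPM. Of 15 lymphocyte markers, 1 was tested, and it was higher at 24 h. Its means were below 1 CPM in both sham and 4 h libraries, so it passed the filter through 24 h and had to rise.

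The 4 libraries at 24 h were not equally far from 4 h. Library G was the closest of the 4 to the 4 h mean in 4429 of the 7976 called genes (55.5%), D in 24.5%, H in 10.7% and C in 9.23%. Its correlation with the 4 h libraries over tested genes was 0.909 to 0.924, against 0.811 to 0.877 for the others, values that are across genes and describe these libraries only. It had the lowest neutrophil and interferon-stimulated sums and the highest tricarboxylic acid cycle sum of the 4. Without G, 31 interferon calls became 33, 39 tricarboxylic acid cycle calls became 41 and 27 calcium and ion channel calls became 30. Sample numbers in the titles run with the groups, so run order and group cannot be told apart. Totals estimated from the smallest CPM step were 12553519 to 18952669 reads per library.

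**Figure D5:**
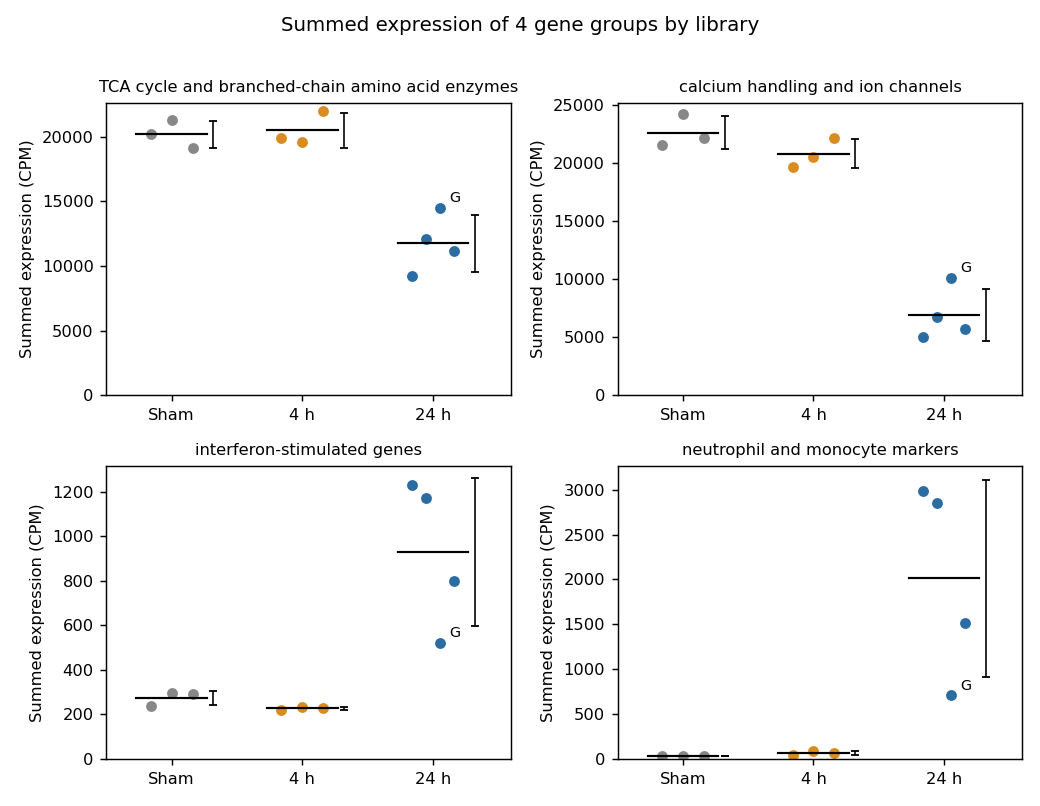
Summed CPM of 4 gene lists in each of the 10 libraries (linear axes), with sham, 4 h and 24 h in order, a line at the mean, a bar of 1 SD and library G of the 24 h group labelled. G has the highest tricarboxylic acid cycle sum (14500 CPM) and the lowest neutrophil sum (707 CPM) and interferon sum (521 CPM) of the 24 h libraries.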

How the data were processed

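RNA from the ischemic area of the left ventricle was sequenced as poly(A)-selected, stranded libraries. Per the methods of the study, single 50-base reads were aligned with STAR to mm10 and counted by expectation-maximisation in Partek Flow on RefSeq transcripts. The authors deposited library-scaled counts (CPM) after TMM normalization, so read counts were not available. In the first table, 82.7% of values under 1 CPM lay within 0.02 of a whole multiple of the lowest value, too few to recover reads. The second table (24 libraries) has 1 added to each CPM value by the authors, which was subtracted. No column was left unmapped.

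limma 3.58.1 in R 4.3.3 (lmFit, then eBayes with trend) was fitted to log2(CPM + 1) of the 10 libraries of the first table in 1 model, for genes whose 10-library mean reached 1 CPM, with the contrasts 24 h minus 4 h, 4 h minus sham and 24 h minus sham. Adjusted p-values are Benjamini-Hochberg over all genes tested, and calls were made below 0.05. The replicates are mice according to the study. Tables were tested separately. Python 3.11 with pandas 2.3.3 and numpy 2.4.6 was used for the lists, and matplotlib 3.10.9 for plots. The scripts were checked on simulated data.

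The comparison, gene lists, classes and tests were chosen with earlier results of these data known. Genes named were those with the largest called difference from 4 h to 24 h in each direction (6 each, mean of 10 CPM or more, groups not overlapping), the largest 4 h differences among the returned genes (10 higher and 5 lower, mean at least 5 CPM), the 10 largest late genes in each direction (mean at least 10 CPM) and up to 4 largest called members of each list (mean at least 5 CPM), 125 genes in all. A further 47 were added after their values were seen. Alternatives were another pseudocount, other filters, other scalings, array weights, other limits of the classes, a replicate block and leaving out each library. One gene and one sequence window that the rules would have named are not reported here.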

Additional observations from a re-analysis of the deposited data

Results flagged for a closer look

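Among 172 named genes, 13 had 1 library at 24 h that stood apart from the other 3, with the gap to its nearest neighbour, as a share of the group's range, above the 95% critical value of Dixon's test. Chance alone gives about 1 such group in 20. Library G stood apart for Tpd52 (0.88 of the range, 77.8 CPM against 125 to 131), Ttll1 (0.87, 11.6 CPM against 6.18 to 6.89), Magix (0.877, 5.76 CPM against 2.40 to 2.81), Abca8a (0.922, 28.3 CPM against 8.02 to 9.60), Kdr (0.909, 108 CPM against 36.5 to 43.1) and Aars (0.889, 112 CPM against 88.4 to 91.0). Library D stood apart for Rasd1 (0.879, 22.7 CPM against 2.88 to 5.28), Cd83 (0.894, 2.44 CPM against 3.71 to 3.87) and Hspa1a (0.877, 414 CPM against 254 to 274). Library H stood apart for Rras2 (0.879, 797 CPM against 461 to 502) and Socs2 (0.906, 10.1 CPM against 14.4 to 14.8), and library C for Plvap (0.96, 48.1 CPM against 28.8 to 29.5) and Dusp7 (0.853, 34.9 CPM against 31.7 to 32.1).

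For 13 named genes every 24 h library lay on one side of the 4 h libraries in the uninjected hearts and on the other side in the Luc hearts. The difference between the sets was not tested, since their tables were normalized separately. The 24 h minus 4 h differences on the log2 scale, uninjected first and Luc second, were -2.14 and 1.30 for Kcnh2, -1.73 and 0.79 for Myh6, -1.60 and 0.41 for Acsl1, -1.62 and 0.94 for Klf15, and -1.83 and 0.58 for Klf9, a glucocorticoid-induced Krüppel-like factor. They were -1.55 and 1.60 for Casq1, -1.12 and 0.77 for Spry1, -1.33 and 0.48 for the clock gene Per3, and -0.60 and 0.74 for Socs2, a feedback inhibitor of growth hormone signalling. In the other direction they were 2.37 and -0.33 for Hsp90aa1, 1.28 and -0.34 for Hspa8, the constitutive Hsc70, 0.95 and -0.73 for Rbm12b2 and 0.61 and -0.22 for Rbm5.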

How the results depend on the processing

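The counts of genes called between 24 h and 4 h, and of list members pooled over the lists, stayed within 1.5 times of the values given under every alternative run. Single lists were run under the rescalings and with 1 library left out, and the exceptions are given beside their counts, apart from the natriuretic and fetal list after equal-total rescaling (1 lower) and the metabolic regulators after either rescaling (1 higher). The called total was 7088 to 8396 when 1 library was left out, with 4199 to 4659 higher and 2791 to 3814 lower, and list members ranged from 238 to 254 higher and 197 to 240 lower. After median-ratio rescaling, which moved the median of all genes to 0.0066, 4140 genes were higher and 4038 lower. The returned class moved most, with 6 to 98 genes without 1 library (4 to 25 higher and 2 to 73 lower at 4 h), 420 with array weights (115 and 305), 22 when the 24 h mean had to lie within the sham range (8 and 14) and 121 with the 4 h call from the 4 h and sham libraries alone (36 and 85). Genes changing only after 4 h numbered 3494 to 5458 without 1 library (2133 to 2837 higher and 1350 to 2621 lower) and 1000 with the narrowest interval limit tried (704 and 296). The Luc set had 2344 to 2938 genes higher and 687 to 794 lower without 1 library, 1705 lower with the compared groups alone, and 1969 higher and 1789 lower after median-ratio rescaling. The cause of these moves was not tested. Uncalled differences changed sign for Il6 (-0.03; 0.080 with array weights, 0.21 with the block, -0.21 to 0.21 without 1 library), Btg2 (0.05; -0.047 after median-ratio rescaling, -0.15 to 0.21 without 1 library) and Atf3 (-0.18; 0.15 with the block). Same-letter deviations correlated at 0.0153 (24 h C and 4 h C), 0.345 (24 h D and 4 h D), 0.125 (4 h D and sham D), -0.0486 (24 h D and sham D) and -0.0567 (24 h H and sham H). Pairs with different letters ranged from -0.338 to 0.283, so the 24 h D and 4 h D value was the highest of all. Whether library letters mark a pairing or a shared batch was not tested. With the letter as a replicate block, 7196 genes were called between 24 h and 4 h, 2 genes returned (1 higher and 1 lower at 4 h) and 2609 changed only after 4 h (1275 higher). Among the partly back genes the block ended the calls of Fosb (-0.76, adjusted p = 0.26) and Egr1 (-1.05, adjusted p = 0.057). With 3 or 4 libraries a group, small differences from sham at 4 h were not detectable for variable genes.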

Other observations

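Of the 9 early genes that moved past the sham level, named here after their values were seen, 8 had been lower at 4 h and were higher than sham at 24 h. Arl4d, a small GTPase of the ARF family, was the 1 that had been higher, with a 4 h minus sham difference of 1.24 and a 24 h minus 4 h difference of -2.31 on the log2 scale. Erlin1, an endoplasmic reticulum protein that takes part in receptor degradation, had the largest swing upward, with -0.75 and then 1.92, and Tubb4b, a beta tubulin, had -0.68 and then 1.04. The 8 genes that were lower at 4 h and fell further included Kcnj2, the inward rectifier potassium channel Kir2.1, with -0.97 and then -0.61 (the first not called without sham H, sham I or 4 h D, adjusted p = 0.062 to 0.078), and Ahrr, a repressor of the aryl hydrocarbon receptor, with -1.43 and then -0.90. The 102 genes that were higher at 4 h and rose further had a median 4 h minus sham difference of 1.37 and a median 24 h minus 4 h difference of 1.22, and 44 of them were called higher at 24 h in the Luc set (43.1%) and 2 lower. The AP-1 site TGAGTCA was searched on either strand from 250 bases before to 50 bases after the start. It was present in 15 of 122 early genes that stayed high or rose further (12.3%) and in 1 of the 18 that returned at least in part (5.56%). Its share over all 9690 tested genes with a promoter entry was 4.69%. The site was also in 7 of 26 interferon-stimulated genes (26.9%) and in 1 of 20 immediate early genes (5.0%).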
